A study of Mus musculus with 8 samples.

Results

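A set of 10 genes of hepatic stellate cell activation and matrix crosslinking were followed in mouse liver: Acta2, Tagln, Pdgfrb, Des, Tgfb1, Timp1, Lox, Loxl2, Ctgf and Thbs1. They were taken by symbol from a list drawn up with earlier results of these data known, and all 10 were found among the 23337 gene symbols of the count data, Ctgf being the older symbol of Ccn2. RNA-seq was performed on liver of 12-week-old C57BL/6 mice that were labelled wild type (WT) or HRD1Alb. In HRD1Alb mice Cre recombinase driven by the albumin promoter, active in hepatocytes, deletes the floxed HRD1 gene (Syvn1). The paper describes the controls of HRD1Alb mice as floxed mice without Cre, and names the controls of its RNA-seq WT. Mice were fasted overnight, or fasted overnight and then refed for 4 h. Each of the 4 groups (WT fasted, HRD1Alb fasted, WT refed, HRD1Alb refed) held 2 samples, 8 in all. The labels do not say whether the samples of a group came from separate animals, so p-values measure the spread between these samples only.

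Hepatic stellate cells are the vitamin A-storing pericytes of the liver sinusoid. When activated by TGF-beta and PDGF they take on features of myofibroblasts, making contractile proteins and collagen, and lysyl oxidases crosslink that collagen while TIMPs restrain the proteases that would remove it. The Cre used here acts in hepatocytes, whereas most of the 10 genes are known from stellate cells and other mesenchymal cells of liver. In bulk liver RNA a larger number of such cells and more RNA per cell cannot be told apart.

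The promoters are shown for the members held in the RefSeq table of GRCm38.p6, namely Acta2, Des, Tgfb1 and Timp1, because Tgfb1 encodes the activating ligand and the others encode a marker or product of activated cells. Each is given 5' to 3' on the gene's strand, from 250 bases before the annotated start to 30 bases after it, with motif matches in capitals. The windows are chr19:34255344-34255623 on the minus strand for Acta2, chr1:75360042-75360321 on the plus strand for Des, chr7:25686752-25687031 on the plus strand for Tgfb1 and chrX:20869916-20870195 on the plus strand for Timp1.
Acta2: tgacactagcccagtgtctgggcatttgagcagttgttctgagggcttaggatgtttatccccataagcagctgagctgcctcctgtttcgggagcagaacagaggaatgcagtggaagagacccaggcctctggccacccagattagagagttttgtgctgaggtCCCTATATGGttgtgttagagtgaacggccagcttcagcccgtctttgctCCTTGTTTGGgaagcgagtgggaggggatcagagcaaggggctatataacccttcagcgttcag
Des: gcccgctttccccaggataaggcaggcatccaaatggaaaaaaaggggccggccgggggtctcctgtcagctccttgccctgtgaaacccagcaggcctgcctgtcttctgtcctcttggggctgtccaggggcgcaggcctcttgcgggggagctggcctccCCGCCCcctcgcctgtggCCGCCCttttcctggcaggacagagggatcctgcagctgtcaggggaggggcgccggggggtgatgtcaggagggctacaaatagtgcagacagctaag
Tgfb1: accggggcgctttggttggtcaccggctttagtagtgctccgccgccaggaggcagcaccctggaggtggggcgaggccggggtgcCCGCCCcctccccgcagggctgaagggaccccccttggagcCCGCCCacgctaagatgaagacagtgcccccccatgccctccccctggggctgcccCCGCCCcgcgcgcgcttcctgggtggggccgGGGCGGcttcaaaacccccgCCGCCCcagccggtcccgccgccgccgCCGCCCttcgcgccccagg
Timp1: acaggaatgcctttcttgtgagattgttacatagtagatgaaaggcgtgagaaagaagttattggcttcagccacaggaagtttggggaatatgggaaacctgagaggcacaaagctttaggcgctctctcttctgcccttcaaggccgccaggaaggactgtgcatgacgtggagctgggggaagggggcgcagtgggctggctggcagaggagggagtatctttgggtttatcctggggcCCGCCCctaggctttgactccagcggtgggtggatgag

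Matches were searched on both strands over 300 bases, which adds 20 bases beyond those printed. The CArG box, the site of serum response factor, was searched as 2 C, 6 inner bases of which at most 1 is G or C, and 2 G. Acta2 held 2 such matches, CCCTATATGG from base -84 and CCTTGTTTGG from base -34, and 9.98% of the 32851 promoters of this length held at least 1. GGGCGG, the core of the GC box, is shown as its reverse complement where it lies on the other strand. It occurred 6 times in Tgfb1, 2 times in Des and 1 time in Timp1, and in 35.7% of promoters. TGAGTNA, a form of the AP-1 site, was found in Timp1 from base 27 after the start, running past the printed bases, and in 14.7% of promoters. These matches are letters in the sequence and do not show that a factor was bound. No 2 motifs overlapped in these promoters.

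Total counts per library were 40210576 to 49117080, and levels are given as CPM normalized by TMM. A level of 3 counts, taken as the smallest detectable value, corresponds to 0.0508 to 0.0788 CPM. The targeted gene Syvn1 was at 111 and 99.8 CPM in the WT fasted libraries and at 32.6 and 31.5 CPM in those labelled HRD1Alb fasted. In refed liver it was at 637 and 305 CPM in WT and at 453 and 132 CPM in the libraries labelled HRD1Alb, so these groups overlapped (log2 fold change -0.69, SE 0.55, edgeR adjusted p = 0.391). A count over the whole gene does not isolate the floxed part, whose exons are not named in the sources used here. The paper reports loss of HRD1 mRNA and protein in HRD1Alb liver, which the refed counts do not show. The reason was not tested. The refed samples are therefore described below as the libraries labelled HRD1Alb, and HRD1Alb alone stands for that label.

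The 2 refed libraries labelled HRD1Alb also stood apart from each other. Across 14148 genes longer transcripts had the lower level in replicate 2 relative to replicate 1 (Spearman's rho of log ratio and length -0.594, a description across genes, against -0.116 to 0.0331 in the other groups), and 22.4% of genes differed at least 2-fold between them against 2.96% to 7.96% elsewhere. Among WT libraries, fasted replicate 2 held 31.3 CPM of 6 summed mesothelial markers, with Msln at 10.2 CPM and Gpm6a at 9.61 CPM, whereas the other 7 libraries held 2.94 to 9.87 CPM. The labelled tissue was checked by 10 hepatocyte markers, which summed to 68700 to 157000 CPM in each library. Most of this sum was Alb, at 47800 to 111000 CPM. Ass1, also on the list, was at only 0.563 to 2.67 CPM, and the reason was not tested.

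Per kilobase of transcript, Tagln was the highest of the 10 genes in 3 of the 4 groups, at 3.49 ± 0.11 CPM per kb in WT fasted, 2.91 ± 0.28 in WT refed and 7.64 ± 0.36 in HRD1Alb refed liver (SD, n = 2 each). In HRD1Alb fasted liver Ctgf was the highest at 6.90 ± 0.77 CPM per kb, ahead of Tagln at 5.24 ± 0.093. The middle of the order held Pdgfrb, Tgfb1 and Des, at 2.12 ± 1.27, 1.43 ± 0.031 and 1.33 ± 0.48 CPM per kb in WT fasted liver, which did not differ beyond their spread. Acta2, Loxl2, Thbs1, Lox and Timp1 were each below 0.6 CPM per kb in both WT groups. Timp1 was the lowest in both WT groups, at 0.0968 ± 0.097 and 0.0149 ± 0.021 CPM per kb.

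**Figure D1:**
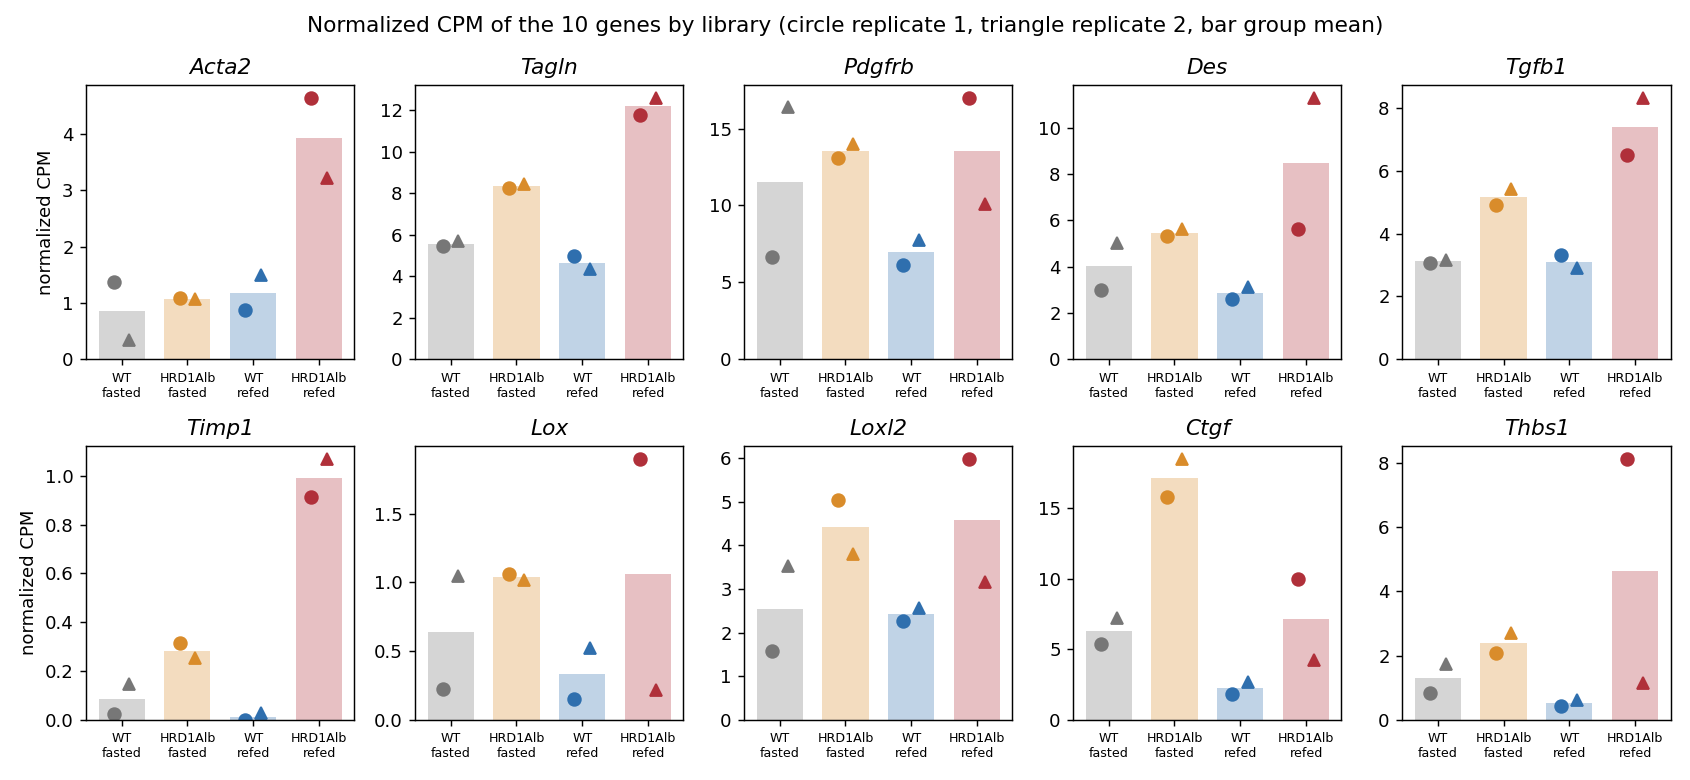
Normalized CPM of each gene (vertical axis, from 0, own scale per panel) in the 4 groups, with replicate 1 as a circle, replicate 2 as a triangle and the group mean of 2 libraries as a bar. Acta2, Tagln, Des, Tgfb1 and Timp1 were higher in both refed libraries labelled HRD1Alb than in every other library. For Des in replicate 1 the margin was narrow, 5.65 against 5.61 CPM in HRD1Alb fasted replicate 2. Lox and Thbs1 were high in replicate 1 only.

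The genotypes were first compared in refed liver, where the question is how loss of HRD1 in hepatocytes relates to these genes after feeding. Of the 10 genes, 5 were higher in the libraries labelled HRD1Alb at an adjusted p below 0.05 and none was lower, beside 7.09% of the 14328 genes tested that were called higher. The 5 were Tagln, Des, Tgfb1, Timp1 and Ctgf. Timp1 passed the filter on low counts only through libraries labelled HRD1Alb, so its call gives no separate support. With at least 10 counts required in every sample, Timp1 and Lox were not tested. Of the 8 genes left 4 were called higher, beside 12.3% of all genes in either direction. All 10 log2 fold changes were above 0 with a median of 1.61, against 0.04 over all genes, and 9 of the 10 genes had both HRD1Alb libraries above both WT libraries, as had 30.7% of all genes. DESeq2 called 7 of the 10 higher, adding Acta2 and Thbs1, beside 22.2% of all genes called in either direction by that tool. The median lies below the fold of Timp1, so it does not depend on how its near-zero counts are handled.

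Of the contractile and cytoskeletal genes, Tagln encodes transgelin, an actin-binding protein of smooth muscle and myofibroblasts. It was at 4.96 and 4.33 CPM in the WT refed libraries and at 11.8 and 12.6 CPM in those labelled HRD1Alb, and rose 2.62-fold (log2 1.39, SE 0.18, adjusted p = 0.011). Both pairs of libraries were tight and far from each other. Acta2, alpha smooth muscle actin and the classical marker of activated stellate cells, was at 0.864 and 1.5 CPM in WT and at 4.64 and 3.22 CPM in HRD1Alb. Its groups did not overlap but its log2 fold change of 1.74 (SE 0.58) did not pass edgeR's test (adjusted p = 0.0886). Des encodes desmin, the intermediate filament of stellate cells in rodents. It was at 2.62 and 3.10 CPM in WT and at 5.65 and 11.3 CPM in HRD1Alb, where replicate 2 was 2.0 times replicate 1, and it rose by a log2 of 1.57 (SE 0.39, adjusted p = 0.0441). Without HRD1Alb refed replicate 2 its log2 fold change was 0.98 and it was no longer called (edgeR adjusted p = 0.0556).

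Among the signalling genes, Tgfb1, the ligand that drives stellate activation, was at 3.31 and 2.89 CPM in WT and at 6.50 and 8.33 CPM in HRD1Alb liver. It rose 2.39-fold (log2 1.26, SE 0.22, adjusted p = 0.0198). Ctgf, a matricellular protein induced by TGF-beta and by YAP, was at 1.83 and 2.70 CPM in WT and at 10 and 4.27 CPM in HRD1Alb. It rose 3.16-fold (log2 1.66, SE 0.42, adjusted p = 0.0466), with replicate 1 of HRD1Alb well above replicate 2. Its log2 fold change was 0.92 without HRD1Alb refed replicate 1, and it was called in 7 of 17 alternatives, not with limma-trend (adjusted p = 0.0515) nor with the replicate block (adjusted p = 0.0656). Thbs1, thrombospondin 1, which can release latent TGF-beta, was at 0.444 and 0.630 CPM in WT and at 8.13 and 1.16 CPM in HRD1Alb, so that replicate 1 alone carried most of its log2 fold change of 3.11 (SE 0.87, adjusted p = 0.0597). Pdgfrb, the PDGF receptor of stellate cells and pericytes, was at 6.12 and 7.77 CPM in WT and at 17 and 10.1 CPM in HRD1Alb (log2 0.97, SE 0.43, adjusted p = 0.162).

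Timp1, the secreted inhibitor of matrix metalloproteinases, gave 0 and 1 counts in the WT refed libraries, at or under the detection floor, and 54 and 49 counts in those labelled HRD1Alb, or 0.914 and 1.07 CPM. The ratio of the summed counts, 103 against 1, was 77.3 with an exact 95% interval of 13.6 to 3080 that covers counting error only. The edgeR test gave adjusted p = 0.0142, and its fitted log2 fold change of 6.01 (SE 0.92) depends on the prior count. The lysyl oxidases, which form the aldehydes that crosslink collagen, did not pass the test. Loxl2 was at 2.27 and 2.57 CPM in WT and at 5.99 and 3.16 CPM in HRD1Alb (log2 0.92, SE 0.45, adjusted p = 0.191). Lox was at 0.148 and 0.525 CPM in WT and at 1.90 and 0.219 CPM in HRD1Alb, and was the member whose groups overlapped (log2 1.67, SE 1.08, adjusted p = 0.302).

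**Figure D2:**
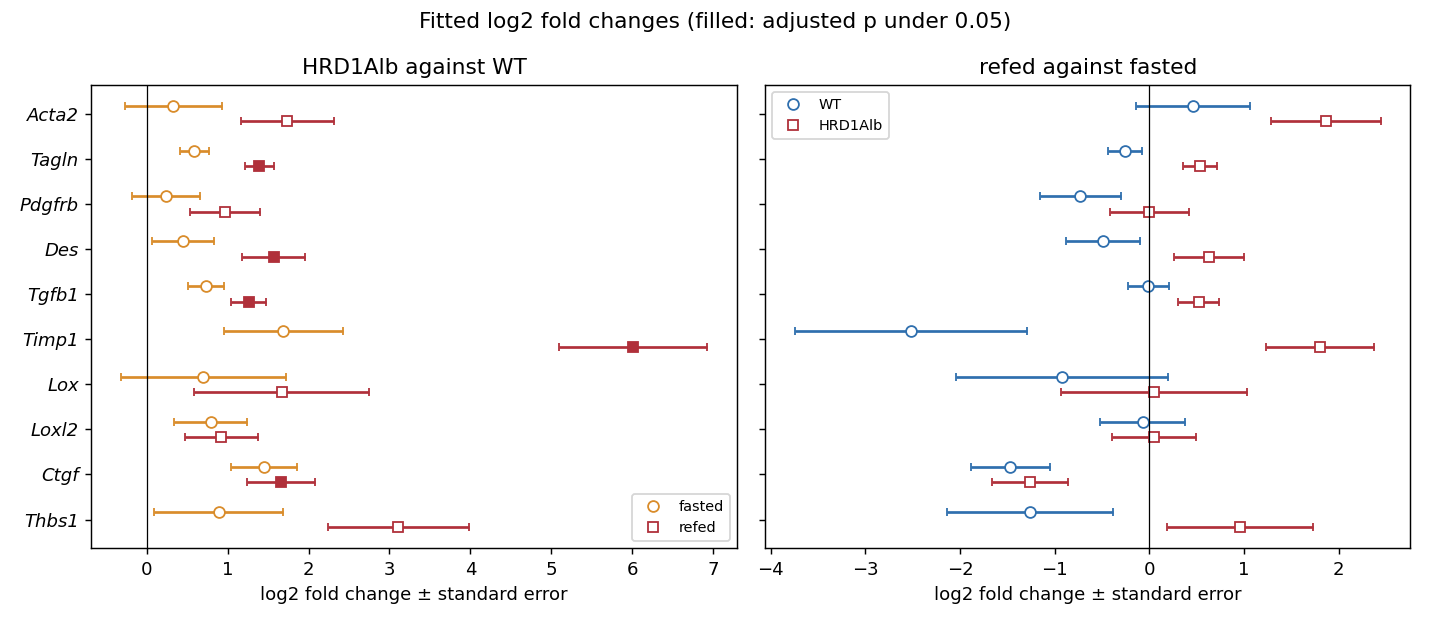
Fitted log2 fold changes with their standard errors (horizontal axis) of the 10 genes, for HRD1Alb against WT at left and refed against fasted at right, with filled symbols where the adjusted p was below 0.05. Filled symbols appear only for HRD1Alb against WT in refed liver, for Tagln, Des, Tgfb1, Timp1 and Ctgf.

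Transcript length moved with these calls. The longest annotated transcripts of the 5 called genes measured 883 to 3028 bases, and those of the uncalled genes 2035 to 5848 bases. In the 4 genes above 4000 bases, replicate 2 of the refed HRD1Alb libraries was 0.116 to 0.598 times replicate 1, and in the 6 shorter genes 0.427 to 2.0 times. With a correction for transcript length in the fit, 6 genes were called, Thbs1 being added, while the share of all genes called in either direction went from 11.9% to 20.1%. Without WT refed replicate 1, or without WT refed replicate 2, none of the 10 was called. Without HRD1Alb refed replicate 1 the log2 fold change of Lox turned to -0.60, and 5 genes were called beside 53.7% of all genes. Without HRD1Alb refed replicate 2, Des was lost and Thbs1 gained, beside 24.2% of all genes. Des and Ctgf were also lost without any 1 of the 4 fasted libraries, and Tgfb1 without either HRD1Alb fasted library.

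**Figure D3:**
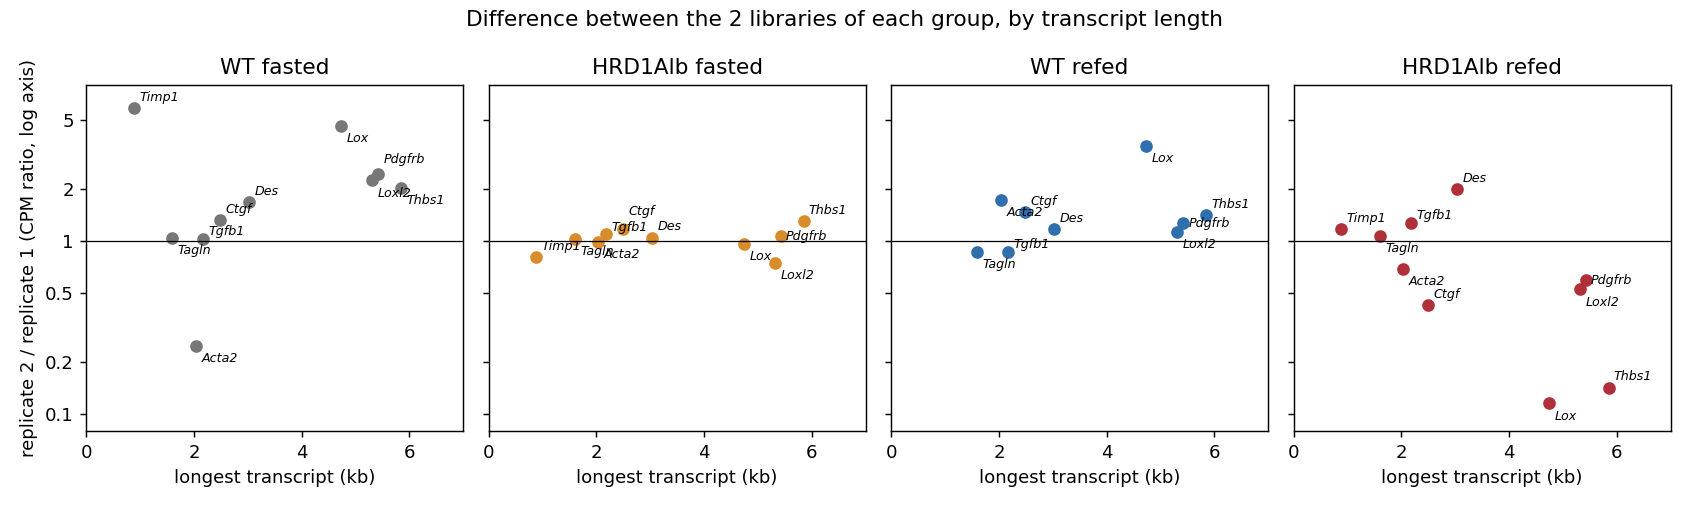
Ratio of replicate 2 to replicate 1 in normalized CPM (vertical log axis) against the longest annotated transcript in kb (horizontal axis) for each gene in the 4 groups, with a line at equal levels. In refed HRD1Alb liver the 4 genes above 4000 bases lie at 0.116 to 0.598. Timp1 in WT refed liver, with 0 counts in replicate 1, has no ratio and is left out.

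In fasted liver none of the 10 genes passed the test between genotypes, beside 0.921% of all genes called higher. Of the 10 genes 3 had an unadjusted p below 0.05 by edgeR, as had 2630 of the 14328 genes tested. DESeq2 called 1, Ctgf, beside 7.64% of all genes in either direction. All 10 log2 fold changes were again above 0, with a median of 0.72 against -0.02 over all genes, and in 7 genes both libraries labelled HRD1Alb were above both WT libraries, as in 30.6% of all genes. Ctgf was at 5.39 and 7.18 CPM in WT fasted and at 15.8 and 18.5 CPM in HRD1Alb fasted liver (log2 1.45, SE 0.41, adjusted p = 0.124), the highest CPM of this gene in the study. Tagln was at 5.44 and 5.69 against 8.25 and 8.46 CPM (log2 0.59, SE 0.18, adjusted p = 0.151). Tgfb1 was at 3.07 and 3.16 against 4.93 and 5.41 CPM (log2 0.73, SE 0.22, adjusted p = 0.146). When only the 4 fasted libraries were fitted, these 3 genes were called higher, beside 7.96% of all genes.

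The remaining members were less separated after fasting. Timp1 gave 1 and 6 counts in WT and 16 and 14 counts in HRD1Alb fasted liver, a ratio of 3.28 with an exact 95% counting interval of 1.41 to 8.84 (edgeR adjusted p = 0.28). Loxl2 was at 1.57 and 3.53 against 5.05 and 3.80 CPM (adjusted p = 0.404), Des at 2.99 and 5.04 against 5.34 and 5.61 CPM (adjusted p = 0.594), and Thbs1 at 0.848 and 1.73 against 2.07 and 2.71 CPM (adjusted p = 0.619). The groups overlapped for Acta2, Pdgfrb and Lox. In WT fasted replicate 2, the library with the high mesothelial markers, Pdgfrb was at 16.4 and Lox at 1.05 CPM, against 6.63 and 0.224 CPM in replicate 1, while Acta2 was at 0.341 against 1.37 CPM. Without WT fasted replicate 1 the log2 fold change of Pdgfrb was -0.27, and without replicate 2 that of Acta2 was -0.32.

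Refeeding for 4 h was then compared within each genotype. These comparisons share libraries with those between genotypes and are not independent of them. In WT liver none of the 10 genes passed the test, beside 2.61% of all genes called in either direction. Of the 10 genes 1 had an unadjusted p below 0.05 by edgeR, as had 2339 of the 14328 genes tested. DESeq2 called 1, Ctgf, as lower, beside 7.58% of all genes in either direction. Of the 10 log2 values, 9 were below 0 with a median of -0.61 against 0 over all genes, and in 3 genes, Tagln, Ctgf and Thbs1, both refed libraries lay below both fasted ones, as in 29.6% of all genes. The median was -0.11, with 4 of 10 values above 0, without WT fasted replicate 2, the library with the high mesothelial markers, and -1.03 without replicate 1. Ctgf had a log2 fold change of -1.47 (SE 0.42, adjusted p = 0.135). Acta2 was the gene with a positive value, 0.46 (SE 0.60, adjusted p = 0.802).

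In the libraries labelled HRD1Alb none of the 10 genes passed the test on refeeding, beside 10.5% of all genes called in either direction. Of the 10 genes 5 had an unadjusted p below 0.05 by edgeR, as had 4538 of the 14328 genes tested. DESeq2 called Acta2 and Tagln higher and Ctgf lower, beside 20.4% of all genes in either direction. In 5 genes, Acta2, Tagln, Des, Tgfb1 and Timp1, both refed libraries lay above both fasted ones, as in 29.2% of all genes. Acta2 was at 1.08 and 1.07 CPM fasted and at 4.64 and 3.22 CPM refed (log2 1.87, SE 0.58, adjusted p = 0.0808). Timp1 was at 0.313 and 0.254 CPM fasted and at 0.914 and 1.07 CPM refed (log2 1.80, SE 0.57, adjusted p = 0.087). Ctgf went the other way, with both refed libraries below both fasted ones (log2 -1.26, SE 0.40, adjusted p = 0.087).

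Whether refeeding acted differently by genotype was tested as an interaction. It called none of the 10 genes, and 0% of the 14328 genes tested. By edgeR 2 of the 10 genes, Tagln and Timp1, and 1209 of all genes had an unadjusted p below 0.05. DESeq2 called none of the 10, and over all genes 49 higher and 46 lower, or 0.663%. The interaction of Tagln was a log2 of 0.80 (SE 0.25, unadjusted p = 0.0149, adjusted p = 0.561 by edgeR). That of Timp1 was 4.32 (SE 1.34, unadjusted p = 0.0135, adjusted p = 0.561).

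Other genes of the same pathways were compared in refed liver, where 7.09% of all genes were called higher and the lists were not tested against each other or against all genes. Of 28 tested genes of the TGF-beta pathway (ligands, receptors, latency proteins and SMADs), 1 rose and none fell, with a median log2 of 0.34. The 1 was Tgfbi, a secreted matrix protein induced by TGF-beta, at 22.3 and 26.5 CPM in WT and 52.0 and 72.3 CPM in HRD1Alb (log2 1.35, SE 0.32, adjusted p = 0.0407). Of 6 PDGF ligands and receptors 1 rose, the ligand Pdgfa, from 5.98 and 4.91 to 11.4 and 13.3 CPM (log2 1.18, SE 0.23, adjusted p = 0.0268). Of 17 CCN family and YAP target genes 2 rose, the receptor kinase Axl (log2 1.26, SE 0.18, adjusted p = 0.0128) and Jub (log2 0.83, SE 0.19, adjusted p = 0.0361), and the list's median was 0.28.

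Genes of matrix processing and the cytoskeleton were counted in the same way. Of 22 tested genes of crosslinking and collagen processing 6 rose and 1 fell, with a median log2 of 0.72. The 1 that fell was Bmp1, at 174 and 190 CPM in WT and at 77.4 and 108 CPM in HRD1Alb (log2 -0.98, SE 0.2, adjusted p = 0.0286). Serpinh1, the collagen chaperone HSP47, was at 10.8 and 10.3 CPM in WT and at 36.7 and 26.9 CPM in HRD1Alb (log2 1.59, SE 0.30, adjusted p = 0.0233). Fkbp10, a prolyl isomerase needed for collagen crosslinking, rose by a log2 of 1.72 (adjusted p = 0.0477), Adamts14, a procollagen peptidase, by 1.69 (adjusted p = 0.042), and Pcolce, which enhances procollagen cleavage, by 1.5 (adjusted p = 0.0405). Of 21 tested TIMPs and matrix proteases 7 rose and none fell. Mmp12, the macrophage elastase, was at 0.123 and 0.131 CPM in WT and at 12.0 and 10.2 CPM in HRD1Alb (log2 6.42, SE 0.71, adjusted p = 0.0082), and the collagenase Mmp13 was at 0.222 and 0.0525 against 1.39 and 1.10 CPM (log2 3.14, SE 0.61, adjusted p = 0.0262). Like Timp1, Mmp12 and Mmp13 passed the filter on low counts only through libraries labelled HRD1Alb. Their calls, counted among the 7, give no separate support. Mmp11 and Mmp23 rose by 2.53 and 2.25. Of 19 smooth muscle and cytoskeletal genes 7 rose, among them Vim, vimentin (log2 1.92, SE 0.40, adjusted p = 0.0296), Tagln2 (1.67, adjusted p = 0.0319), Myl9, a myosin light chain (1.43, adjusted p = 0.0299), and Tpm1, a tropomyosin (1.38, adjusted p = 0.00919). None was called lower. Both HRD1Alb libraries lay above both WT ones in 13 of the 19 and below in 3, as in 4399 and 4313 of the 14328 genes. Mylk was at 130 and 144 CPM in WT and 74.9 and 32.6 CPM in HRD1Alb (log2 -1.35, SE 0.36, adjusted p = 0.0506). Myh11 had a log2 of 0.14 (SE 0.41, adjusted p = 0.815).

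In fasted liver few of these genes passed the test between genotypes. Mmp12 rose by a log2 of 6.05 (SE 0.70, adjusted p = 0.0189), at 0.125 and 0.146 CPM in WT and 14.2 and 4.07 CPM in HRD1Alb, and Axl by 1.20 (SE 0.18, adjusted p = 0.0362). The call of Mmp12 gives no separate support here either, because Mmp12 passed the filter only through libraries labelled HRD1Alb. By edgeR no gene was called of 28 in the TGF-beta list (2 at an unadjusted p below 0.05), of 22 in the crosslinking list (9), of 6 PDGF genes (0) and of 19 cytoskeletal genes (4), where DESeq2 called 0, 3, 0 and 1. Over all 14328 genes 2630 had an unadjusted p below 0.05 by edgeR, and DESeq2 called 7.64% in either direction. On refeeding, beta-actin (Actb) rose in WT from 324 and 444 to 975 and 1070 CPM (log2 1.41, SE 0.24, adjusted p = 0.0346) and in HRD1Alb from 368 and 446 to 1400 and 1900 CPM (log2 2.02, SE 0.24, adjusted p = 0.00734). Serpinh1 rose on refeeding in the libraries labelled HRD1Alb (log2 2.01, SE 0.30, adjusted p = 0.012), as did Tgm2, a transglutaminase (1.14, SE 0.21, adjusted p = 0.0198), and Pdgfa (1.48, SE 0.23, adjusted p = 0.0139), while the receptor Tgfbr2 fell by 0.68 on the log2 scale (SE 0.17, adjusted p = 0.0488).

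Markers of several cell types moved with the 10 genes. The summed level of 20 stellate identity genes was 302 to 359 CPM in WT refed and 700 to 707 CPM in HRD1Alb refed liver, and 342 to 595 against 734 to 748 CPM after fasting. Among the genes of this list that rose in refed liver were Angptl6 (log2 2.56, adjusted p = 0.00189), the transcription factor Hand2 (1.32, adjusted p = 0.0436) and Colec11 (1.04, adjusted p = 0.0488), and after fasting 1 of the 20 rose, Angptl6 (1.12, adjusted p = 0.036). Of 14 portal fibroblast and vessel wall genes Thy1 and Entpd2 rose in refed liver. Of 11 Kupffer cell and macrophage markers 8 rose in refed liver, among them Marco, Cd68, Ccr2 and Cd5l, and 2, Cd68 and Emr1, after fasting. By edgeR 9 of the 11 had an unadjusted p below 0.05 in each state, the median log2 values were 1.48 refed and 1.40 fasted, and DESeq2 called 9 and 7. Over all 14328 genes the unadjusted counts were 4775 refed and 2630 fasted, and DESeq2 called 22.2% and 7.64% in either direction. Their sum was 111 CPM in both WT refed libraries and 231 to 479 CPM in HRD1Alb refed liver, and 97.1 to 108 in WT fasted against 251 to 340 CPM in HRD1Alb fasted liver.

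The remaining lists gave these values, beside the same unadjusted and DESeq2 counts over all genes. The sum of 10 liver endothelial markers was 158 to 206 CPM across all libraries, and by edgeR none was called between genotypes, with 0 at an unadjusted p below 0.05 and 0 by DESeq2 in either feeding state. Of 8 cholangiocyte markers edgeR called 0 (2 at an unadjusted p below 0.05 in fasted and 3 in refed liver, 0 and 1 by DESeq2), and of 6 mesothelial markers 0 (1 and 0, and 0 by DESeq2). Of 8 lymphocyte markers Cd8a rose in refed liver (log2 2.24, SE 0.44, adjusted p = 0.0264). Their sum was 3.94 to 4.22 CPM in WT refed and 5.52 to 9.16 CPM in HRD1Alb refed liver, and 3.32 to 3.72 against 4.28 to 5.43 CPM after fasting, with no overlap in either state. The sum of 10 hepatocyte markers was 145000 to 157000 CPM in WT fasted and 93000 to 93500 CPM in HRD1Alb fasted liver, and 119000 to 126000 against 68700 to 112000 CPM after refeeding, where Apob fell by 1.24 on the log2 scale (SE 0.20, adjusted p = 0.0164). The part of these shifts in the levels of the 10 genes was not tested.

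**Figure D4:**
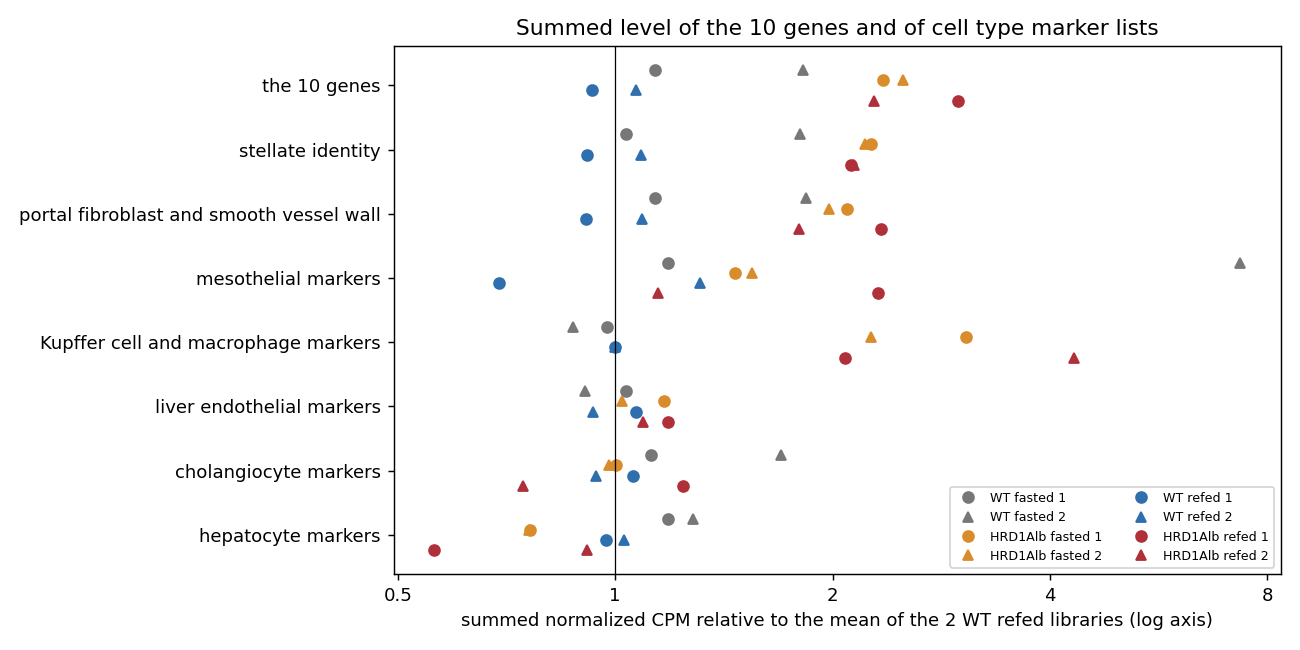
Summed normalized CPM of the 10 genes and of marker lists in each library, relative to the mean of the WT refed libraries (horizontal log axis), with replicate 1 as circles and replicate 2 as triangles. The 10 genes summed to 22.6 to 26.0 CPM in WT refed and 55.5 to 72.5 CPM in HRD1Alb refed liver, and the endothelial sum stayed between 158 and 206 CPM in all libraries.

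For each of the 10 genes, the gene outside the list with the most similar log2 CPM over the 8 libraries is given as a description. These libraries share group and depth. Pearson's r was 0.994 for Tagln and Lfng, 0.990 for Tgfb1 and Ccl5, 0.989 for Des and Ramp1, 0.986 for Timp1 and Gdf10, and 0.983 for Lox and Tshz3. It was 0.982 for Thbs1 and Col6a3, 0.980 for Acta2 and 2700038G22Rik, 0.977 for Pdgfrb and Ltbp3 and for Ctgf and Emp2, and 0.975 for Loxl2 and Ptgfrn.

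On GRCm38 the exons of Acta2, Pdgfrb, Tgfb1 and Timp1 overlap no exon of another annotated gene. Tagln (chr9:45929619-45936058) overlaps Pcsk7 on the opposite strand, Des (chr1:75360329-75368579) overlaps Gm15179, Ctgf (chr10:24595442-24598683) overlaps Gm15270, Thbs1 (chr2:118111876-118127133) overlaps Gm29233, Loxl2 (chr14:69609068-69695834) overlaps Gm27177, and Lox overlaps AC161119.1. The strand setting of the counting is not given in the sources used here, so reads of these pairs could not be told apart.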

How the data were processed

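Liver RNA-seq libraries were analysed from the 8 samples, assigned to groups by their labels. The deposited values are counts per gene symbol, as whole numbers without normalization. Per the methods of the study the authors extracted RNA with TRIzol, sequenced each sample on a lane of an Illumina NextSeq, counted reads with ERANGE and tested RPKM with limma. The submitters' processing notes instead name cutadapt, STAR, HTSeq, DESeq2 and mm10, with no versions, so which tool made the counts is not settled.

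The analysis used edgeR 4.0.16 under R 4.3.3. Genes passing filterByExpr (minimum count 10, minimum total 15) were tested, 14328 of 23337, all 10 members among them. Timp1 passed the CPM cut of 0.217 in 4 of the 8 libraries, all of them labelled HRD1Alb, and Lox passed it in 6. Libraries were scaled by TMM, factors 0.837 to 1.22, and all 8 samples entered a quasi-likelihood fit with a term per group. P-values are two-sided and adjusted by Benjamini-Hochberg over all tested genes of a comparison, with a threshold of 0.05. SE is the absolute log2 fold change over the square root of F. An exact permutation test of 2 against 2 cannot give a p below 0.333, so the tests draw on spread that is pooled over genes. Log CPM used a prior count of 1, which gives the correlations. Intervals and floors cover counting error only.

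The members and all lists were chosen with earlier results of these data known, and the lists give no independent support. Named genes are the members, Syvn1, the gene most like each member, and from each list up to 4 called genes with the largest change per comparison, or else the 2 with the highest CPM; examples are given, and 1 item is not reported here. Bmp1, Mylk, Myh11 and Ass1 are named outside this rule. Lengths and positions are from GENCODE M21 (GRCm38), matched by symbol for 97.8% of symbols. Promoters are from RefSeq and are shown for 4 members, with entries on chromosome 18 not used. Motifs were first searched over the 280 printed bases, which gave no TGAGTNA match, and then over all 300 bases of the table. Alternatives were RLE scaling, DESeq2 1.42.0, limma-trend (limma 3.58.1), other filters, fits of the compared samples only, a replicate block, a length correction, and each sample left out. The script was tested on simulated data. Figures used Python 3.11.15 and matplotlib 3.10.9.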

Additional observations from a re-analysis of the deposited data

Results flagged for a closer look

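The log2 fold changes of Tagln on refeeding had opposite signs in the genotypes. In WT liver both refed libraries lay below both fasted ones (log2 -0.26), as in 29.6% of all genes. In the libraries labelled HRD1Alb both lay above (log2 0.54), as in 29.2% of all genes. Neither change passed the test by edgeR (adjusted p = 0.569 and 0.0914). The interaction that tests this difference gave 0.80 (SE 0.25, adjusted p = 0.561 by edgeR).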

How the results depend on the processing

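With 2 libraries per group the calls rest on spread shared across groups. In refed liver the number of the 10 genes called between genotypes was 5 with all samples and 0 when only the 4 refed libraries were fitted, where edgeR called no gene at all. Leaving out each library in turn gave 0 to 5: 3 without WT fasted replicate 1, 2 without either HRD1Alb fasted library and 0 without either WT refed library. In fasted liver the count of 0 became 1 with DESeq2, beside 7.64% of all genes in either direction. It became 3 with the fasted libraries only, beside 14.2% of all genes. The median log2 of the 10 genes was 0.51 without WT fasted replicate 1 and 1.29 without WT fasted replicate 2. On refeeding in WT the count of 0 became 1 with DESeq2 and with the WT libraries only, beside 7.58% and 12.6% of all genes. In HRD1Alb it became 3 with DESeq2, beside 20.4% of all genes. There the median log2 was 0.09 without HRD1Alb refed replicate 1 and 0.47 without replicate 2. For the interaction the count was also 0 with DESeq2, and its log2 for Tagln ran from 0.54 to 0.92 over the alternatives. The median interaction log2 of the 10 genes was 0.89 with all samples, 0.5 without HRD1Alb refed replicate 1 and 0.9 without replicate 2. In fasted liver, on refeeding and for the interaction, the count of 0 did not hold in every fit with a library left out. The cause of these shifts was not tested.

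With the replicate block 4 genes were called in refed liver, Ctgf being lost, and 5 with block and length correction, where Ctgf stayed lost and Thbs1 was gained. The block changed no other count. The labels do not say what a replicate number marks, and same-numbered samples deviated together weakly (r 0.0161 to 0.179 over 6 pairs of groups). Over all genes, the fasted count was 132 higher and 62 lower by edgeR and 632 and 462 by DESeq2, and the refed count 1016 and 693 against 1703 and 1475. The block gave 82 and 37 in fasted liver. The length correction evened the directions, with 482 higher and 426 lower fasted, and 1316 and 1463 refed when joined with the block. Over all alternatives the share of genes called ran from 0 to 22% fasted, 0 to 53.7% refed, 0 to 17.7% on refeeding in WT, 0 to 52.2% in HRD1Alb and 0 to 34.1% for the interaction. Where a group kept 1 library, that library was assumed to vary like the other groups.

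Some uncalled log2 values changed sign. On refeeding in HRD1Alb, Pdgfrb gave -0.000501 with DESeq2, -0.0433 with limma-trend and -0.00449 without a filter, Lox -0.56 and Loxl2 -0.00791 with limma-trend, and in WT Loxl2 gave 0.0343 with limma-trend. Over the libraries left out, the lowest and highest log2 values were as follows. For HRD1Alb against WT fasted they were -0.32 to 1.65 for Acta2, -0.27 to 1.06 for Pdgfrb and -0.0137 to 2.23 for Lox. For HRD1Alb against WT refed they were -0.60 to 2.83 for Lox. For refeeding in WT they were -0.19 to 1.78 for Acta2, -1.23 to 0.0968 for Pdgfrb, -0.12 to 0.0868 for Tgfb1, -2.08 to 0.60 for Lox and -0.54 to 0.65 for Loxl2. For refeeding in HRD1Alb they were -0.41 to 0.33 for Pdgfrb, -2.23 to 0.87 for Lox, -0.48 to 0.44 for Loxl2 and -1.04 to 1.76 for Thbs1.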
